A study of Mus musculus with 2 samples.

Results

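The genes described here are 10 that glucocorticoids or metals are known to induce, Fkbp5, Tsc22d3, Sgk1, Zbtb16, Mt1, Mt2, Cebpb, Cebpd, Hsd11b1 and Errfi1. They were chosen by gene symbol, without a threshold on any value, and all 10 were found among the 55536 genes of the gene table. Each library was total RNA-seq with ribosomal RNA reduced, from 300 ng of RNA of a whole-tissue heart sample, and both hearts came from males of the strain B6CASTF1/J (The Jackson Laboratory; first-generation offspring of B6 and CAST) at 2 months. No treatment, hormone dose or second tissue was given in the labels, so the 2 libraries form 1 group and nothing was compared between conditions. One donor entry is shared by both libraries while the males carry separate numbers, so replicates 1 and 2 are read here as 2 animals. Library totals were 39177981 expected counts in replicate 1 and 44544839 in replicate 2.

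Glucocorticoids (corticosterone in mice) enter the cell, bind the glucocorticoid receptor held in a chaperone complex, and send it to the nucleus, where it binds DNA at palindromic response elements. Genes induced in this way include brakes on the hormone's own action, regulators of growth signalling and ion transport, and transcription factors. Metallothioneins are small cysteine-rich proteins that bind zinc and copper, and both metals, through the factor MTF1, and glucocorticoids raise their transcripts. In the heart, corticosteroids act on muscle cells and on the other cell types of the wall, and since heart tissue was sequenced in bulk, fewer cells of a type and less RNA per cell cannot be told apart.

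All 10 genes were measured in both hearts, over a wide range of levels. Each had at least 1 TPM (transcript abundance scaled to the library total and divided by transcript length) in both mice, as did 21.5% of all genes in the table. Their median level was 27.1 TPM in replicate 1 and 27.7 TPM in replicate 2, against 8.55 and 8.83 TPM for the 10970 protein-coding genes detected at 1 TPM. In mean TPM of the gene table the order was Mt1, Zbtb16, Tsc22d3, Mt2, Cebpb, Fkbp5, Sgk1, Errfi1, Hsd11b1 and Cebpd. The values of the 2 mice overlapped between Tsc22d3 and Mt2, Mt2 and Cebpb, Fkbp5 and Sgk1, and Errfi1 and Hsd11b1. Within each heart, Fkbp5 was above Sgk1 (24.5 against 17.7 TPM in replicate 1, 26.9 against 24.8 TPM in replicate 2). The other overlapping pairs changed order between the hearts. All other neighbours were apart in the gene table. The order depended on the quantification. In the second transcript table Zbtb16 (61.2 and 59.4 TPM) overlapped Tsc22d3 (44.3 and 60.7 TPM). Cebpb (31.5 and 36.2 TPM) overlapped Fkbp5 (28.5 and 32.2 TPM) there but was above it in each heart. Mt2 and Cebpb, and Fkbp5 and Sgk1, were apart there. By mean, Mt2 (53.8 TPM) then came before Tsc22d3 (52.5 TPM) and Hsd11b1 (8.07 TPM) before Errfi1 (7.64 TPM). Mt1 stood at the 96.8th percentile of the detected protein-coding genes and Cebpd at the 19.7th.

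**Figure D1:**
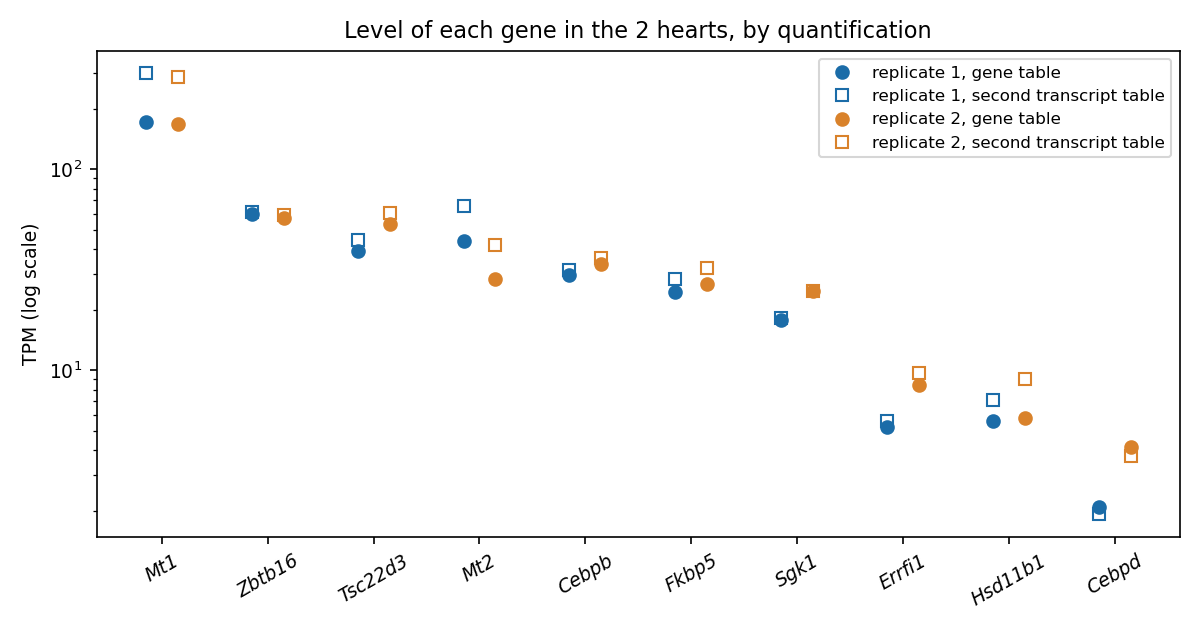
Level of each of the 10 genes in TPM (log axis), replicate 1 left and replicate 2 right, with filled circles for the gene table and open squares for the second transcript table. Mt1 is highest, at 172 TPM in replicate 1 and 168 TPM in replicate 2 in the gene table, and its squares lie farthest above its circles.

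The hearts stood apart in 5 of the 10 genes. Ratios between them are replicate 1 over replicate 2 of expected counts, scaled by TMM for library size and composition, in genes with a mean of at least 50 expected counts, and a log2 ratio beyond 0.32 in either direction was used as the threshold for a difference. Past it, Mt2 was higher in replicate 1, as were 4.68% of all 12454 genes compared, and Tsc22d3, Sgk1, Errfi1 and Cebpd were lower in replicate 1, as were 3.12% of all genes compared. The median log2 ratio of the 10 was -0.11, against -0.005 over all genes compared. With 1 library a mouse these ratios have no replicate check, and their intervals cover counting error only. The genes were picked with earlier results of these data known, so their share past the threshold is not evidence about the group as such. Scaling on the spike-ins instead lowered the log2 ratios by a median of 0.17, and the same 5 genes passed the threshold, as did 1.97% of all genes compared higher in replicate 1 and 11.8% lower there. The common biological coefficient of variation between the 2 hearts was 6.63% over 15170 genes.

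**Figure D2:**
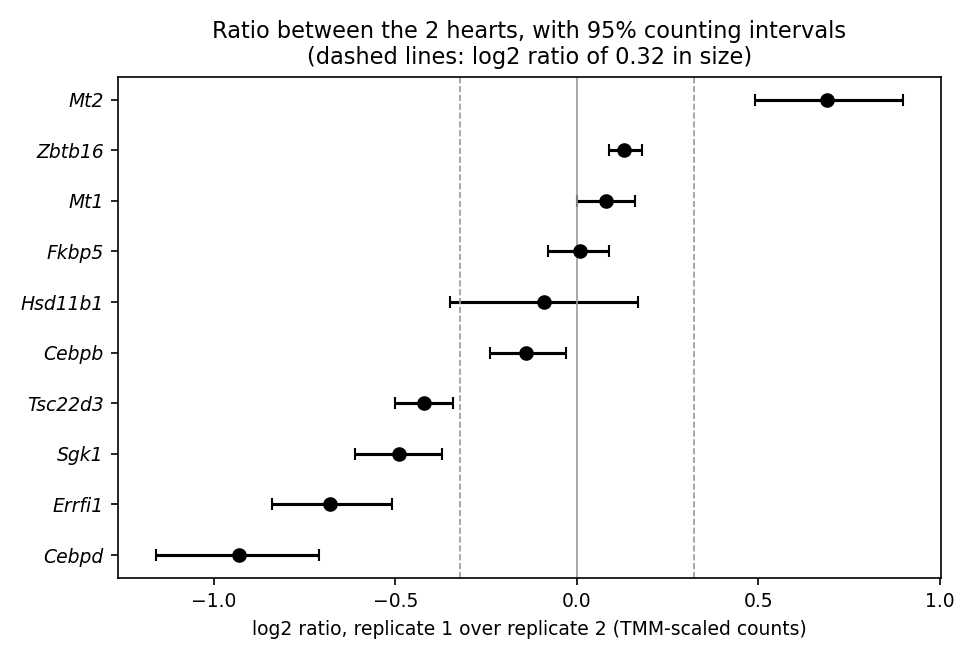
Log2 ratio of replicate 1 over replicate 2 for each of the 10 genes, with exact 95% counting intervals as bars and dashed lines at 0.32 in either direction. Mt2 lies right of the right-hand line at 0.69, and Tsc22d3, Sgk1, Errfi1 and Cebpd lie left of the left-hand line, down to -0.93.

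The receptor and the enzyme that regenerates its ligand were both expressed. Nr3c1, which encodes the glucocorticoid receptor, had 24.2 TPM in replicate 1 and 24.8 TPM in replicate 2, and Nr3c2, the mineralocorticoid receptor that binds the same hormone, had 9.21 and 10.7 TPM in the same order. Nr3c1 thus exceeded Nr3c2 by 2.63-fold in replicate 1 and 2.33-fold in replicate 2. In the second transcript table it did so by a mean of 3.68-fold over the mice. Hsd11b1 (ENSMUSG00000016194.14, chr1:193221634-193264075, minus strand), the reductase that turns the inert keto form of the hormone into corticosterone inside cells, had 5.57 TPM from 221 expected counts in replicate 1 and 5.77 TPM from 276 in replicate 2. The 2 hearts were close in Hsd11b1, with a log2 ratio of -0.09 and a 95% counting interval of -0.35 to 0.17. H6pd, which supplies the cofactor for that reductase, stood at 16.0 ± 1.27 TPM (SD, n = 2). Hsd11b2, the enzyme that inactivates corticosterone in mineralocorticoid target cells, was at 0.02 TPM in replicate 1 and 0 in replicate 2. Among the 10 genes listed for receptors and steroid handling, 5 reached 1 TPM in both mice, the others being the efflux pumps Abcb1a, at 4.17 ± 0.0707 TPM, and Abcb1b, at 1.94 ± 0.0636 TPM. The steroid carrier Serpina6 and the adrenal enzyme Cyp11b1 were at 0 in both. Between mice, 0 of the 5 genes compared passed the threshold, against 4.68% of all genes compared higher and 3.12% lower in replicate 1. Under spike-in and total count scaling and in the second table Nr3c2 passed it, lower in replicate 1.

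The start assigned to Hsd11b1 depended on the transcript quantification. The authors deposited a first transcript table with the columns of the gene table and a second one made from reads and an index, per the deposited file descriptions. Its 7 annotated transcripts began at 7 places, and Hsd11b1-201 and Hsd11b1-205 encode the same 879 coding bases from different starts. In the first transcript table Hsd11b1-205, which begins farthest upstream at position 193264075, held 64.1% of the gene's TPM in replicate 1 and 50.3% in replicate 2. In the second table it held 23.8% in replicate 1 and 0.00156% in replicate 2, and Hsd11b1-201 led with 41.2% and 43.7%. Hsd11b1-202 held 32.4% and 41.8% there but 0% in the first table, and Hsd11b1-203 held 11.3% and 7.28% in the first and 1.83% and 13.6% in the second, replicate 1 first in each pair. Its 221 counts in replicate 1 and 276 in replicate 2, spread over these models, were the fewest of the 10 genes in both hearts.

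The chaperones and coregulators that carry and modify the receptor were expressed in both mice. All 15 listed genes reached 1 TPM in both, with a median of 36.3 TPM. Hspa8 averaged 587 ± 4.87 TPM, Hsp90ab1 494 ± 15.8 TPM, the co-chaperone Fkbp4 130 ± 6.34 TPM and Hsp90aa1 91.8 ± 6.30 TPM (SD, n = 2), while the coactivator Ncoa3, at 10.6 TPM, and the corepressor Nrip1, at 11.4 TPM, were lowest. Only Hsp90aa1 passed the threshold between mice, 1.29-fold higher in replicate 1, a count near the share of all genes compared (4.68% higher and 3.12% lower in replicate 1). Under spike-in scaling Hsp90aa1 was under the threshold, at 0.19, and the median log2 ratio of the 15 was -0.01 with TMM.

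Fkbp5 was alike in both hearts. Fkbp5 (ENSMUSG00000024222.17, chr17:28399094-28517527, minus strand) encodes FKBP51, a co-chaperone that lowers the receptor's affinity for hormone and so forms a short feedback loop. It had 24.5 TPM from 2120 expected counts in replicate 1 and 26.9 TPM from 2480 in replicate 2, and its log2 ratio was 0.01 with an interval of -0.08 to 0.09. Fkbp4, whose product competes with FKBP51 for the same complex, was 5.12-fold higher than Fkbp5 in replicate 1 and 5.003-fold higher in replicate 2. Of 14 FKBP genes, 13 reached 1 TPM in both mice. After Fkbp4 came Fkbp3 at 94.9 TPM, Fkbp1a at 75.4 TPM, Fkbp8 at 50.2 TPM and Fkbp9 at 32.6 TPM, so Fkbp5 was the sixth of the family. The other members at 1 TPM were Fkbp2, Fkbp7, Fkbp10, Fkbp11, Fkbp14, Fkbp15 and Fkbpl, between 2.48 and 9.04 TPM in mean. Of the 13, only Fkbp11 passed the threshold, 1.34-fold higher in replicate 1 with an interval that included 0 on the log2 scale (-0.15 to 1.00), and it was under the threshold with spike-in scaling, at 0.25. That count is near the share of all genes compared (4.68% higher and 3.12% lower in replicate 1).

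Most Fkbp5 RNA was assigned to its full coding transcript, with a sizeable share of TPM, but fewer counts, on a short non-coding model. Among 15 annotated transcripts, Fkbp5-201 held 69.8% of the gene's TPM in replicate 1 and 63.6% in replicate 2 in the first table, and 61.0% and 50.4% in the second. Fkbp5-203, a processed transcript of 838 bases that begins inside the gene, held 24.3% and 30.2% in the first table and 24.2% and 23.5% in the second. Fkbp5-209, which encodes the same 1371 coding bases as Fkbp5-201 from a start farther upstream, held 0.897% and 0.855% in the first table and 9.83% and 13.2% in the second. Fkbp5-201, Fkbp5-203 and Fkbp5-209 thus kept their order by TPM in both tables, with a larger share for Fkbp5-209 in the second. By counts in the first table, Fkbp5-203 had 137 of the gene's 2120 in replicate 1 and 211 of 2480 in replicate 2. In the second table's counts Fkbp5-209, at 286 and 489, exceeded Fkbp5-203, at 114 and 141.

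Tsc22d3 was lower in replicate 1. Tsc22d3 (ENSMUSG00000031431.13, chrX:140539528-140600659, minus strand) encodes GILZ, a leucine zipper protein that mediates much of the anti-inflammatory action of glucocorticoids. It had 39.3 TPM from 2134 expected counts in replicate 1 and 53.5 TPM from 3363 in replicate 2. The log2 ratio was -0.42 with a counting interval of -0.50 to -0.34, or 1.34-fold lower in replicate 1, and 4.54% of the 12454 genes compared had a ratio larger in size. Among its relatives, Tsc22d1 had a log2 ratio of 0.17, Tsc22d4 of -0.07 and Tsc22d2 of 0.02, at mean levels of 142, 94.3 and 9.88 TPM. Tsc22d1 exceeded Tsc22d3 by 3.76-fold in replicate 1 and 2.53-fold in replicate 2.

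The difference in Tsc22d3 lay on its coding transcripts. Tsc22d3-201, the form that encodes the GILZ protein of 137 codons, and Tsc22d3-203, a longer form of 201 codons from a start far upstream, share their last 296 coding bases and differ before them. Their coding sequences, read from GENCODE M21 transcripts (GRCm38), are shown from the start codon because reads there tell these 2 forms apart. Capitals mark the bases before the coding end that the 2 forms share. The other annotated transcripts of the gene were not compared. Tsc22d3-201 has 118 such bases, followed here by the first 30 shared ones, and the first 150 of the 310 of Tsc22d3-203 are shown.
Tsc22d3-201: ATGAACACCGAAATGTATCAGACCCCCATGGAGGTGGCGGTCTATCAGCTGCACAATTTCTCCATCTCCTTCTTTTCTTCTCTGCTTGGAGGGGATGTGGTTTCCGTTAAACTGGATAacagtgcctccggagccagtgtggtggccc
Tsc22d3-203: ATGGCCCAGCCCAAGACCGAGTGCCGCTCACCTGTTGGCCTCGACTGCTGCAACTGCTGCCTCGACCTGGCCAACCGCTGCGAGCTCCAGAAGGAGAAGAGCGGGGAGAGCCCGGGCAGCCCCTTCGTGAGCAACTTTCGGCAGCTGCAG
Tsc22d3-201 had 21.6 TPM in replicate 1 and 36.5 TPM in replicate 2 in the first table, and 20.8 and 33.6 TPM in the second, so it was 1.69-fold and 1.61-fold lower in replicate 1. Tsc22d3-203 had 7.39 and 9.97 TPM in the first table and 12.0 and 16.7 TPM in the second, 1.35-fold and 1.39-fold lower in replicate 1. Tsc22d3-202, a processed transcript without a coding sequence, went the other way, with 9.76 TPM in replicate 1 and 6.16 TPM in replicate 2 in the first table and 10.8 and 9.19 TPM in the second. The direction for each of these 3 transcripts was the same in both tables. Coding transcripts together held 73.8% of Tsc22d3 TPM in replicate 1 and 86.8% in replicate 2 in the first table, and 74.2% and 83.0% in the second.

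Sgk1 was also lower in replicate 1. Sgk1 (ENSMUSG00000019970.15, chr10:21882184-21999903, plus strand) encodes a kinase that glucocorticoids, aldosterone and serum induce and that promotes sodium channel and transporter activity. It had 17.7 TPM from 933 expected counts in replicate 1 and 24.8 TPM from 1539 in replicate 2, a log2 ratio of -0.49 with an interval of -0.61 to -0.37, or 1.40-fold lower in replicate 1. A larger ratio was seen in 3.27% of genes compared. Its paralog Sgk3 stood at 3.64 TPM with a log2 ratio of 0.07, and Sgk2 was at 0 in both hearts. Sgk1 exceeded Sgk3 by 5.48-fold in replicate 1 and 6.14-fold in replicate 2. Of the genes listed with it, the related kinases Akt2 (79.8 TPM) and Akt1 (75.8 TPM), the activating kinase Pdpk1 (18.6 TPM) and the substrate Nedd4l (17.7 TPM) had log2 ratios between -0.10 and 0.03, and of the genes named here from that list only Sgk1 passed the threshold. Among all genes compared, 3.12% passed it lower and 4.68% higher in replicate 1.

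The 2 transcript tables placed Sgk1 RNA on the same stretch of starts but on different transcripts within it. Sgk1 has 13 annotated transcripts from 9 starts spread over the gene. A cluster of 3 neighbouring starts, positions 21993890 to 21994910 and a span of 1020 bases, held 95.8% of Sgk1 TPM in replicate 1 and 94.7% in replicate 2 in the first table, and 92.2% and 84.3% in the second. This grouping was made after the values were seen. Within it, Sgk1-201 (starting at 21994666) led the first table with 42.6% and 50.4% and held 4.30% and 0% in the second. Sgk1-202 (starting at 21993890) held 20.4% and 17.2% in the first table and led the second with 62.3% and 62.0%. The proteins they encode differ at the start, as their 1296 and 1338 coding bases share only the last 1221. Sgk1-206 held 11.8% and 5.80% in the first table and 20.9% and 15.3% in the second, and the retained-intron model Sgk1-209, of 347 bases, held 17.1% and 17.7% in the first and 2.17% and 4.19% in the second. The first-table shares of Sgk1-209 rested on 23 expected counts in replicate 1 and 38 in replicate 2. Sgk1-213, from an upstream start, was at 0% in the first table and at 0.00103% and 9.92% in the second. Which N-terminal form of the kinase prevailed in these hearts thus differed between quantifications, whereas the lower total in replicate 1 did not.

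The start of Sgk1-202 carried the only complete glucocorticoid response element found in the windows of these genes. The RefSeq window (GRCm38, chr10:21993640-21993919, plus strand, 250 bases before the annotated start to 30 after it) is shown because it holds that palindrome, in capitals.
Sgk1: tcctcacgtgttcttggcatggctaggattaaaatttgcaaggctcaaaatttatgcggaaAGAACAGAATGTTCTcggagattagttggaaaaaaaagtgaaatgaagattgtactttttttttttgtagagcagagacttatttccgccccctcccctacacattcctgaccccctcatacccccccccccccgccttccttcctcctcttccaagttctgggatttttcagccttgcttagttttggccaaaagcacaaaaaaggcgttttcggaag
The element searched was the hexamer AGAACA, then any 3 bases, then its reverse complement TGTTCT, and it lay 189 to 175 bases before the start. Windows of 300 bases were searched on both strands, and 3 of 32851 in the table (0.00913%) held it. The hexamer alone, counted again inside the palindrome, occurred in 19.0% of all windows and 3 or more times in 0.310%, and this Sgk1 window held 3. In the other windows of these genes it occurred once at the starts of Tsc22d3-203, Sgk1-204 and Sgk1-203, and not in the window of Fkbp5. In all, 16 windows of 8 of the 10 genes could be matched, not those of Zbtb16 and Cebpd. A match is a description of letters in the reference sequence, and no window says anything of elements farther away or of the CAST alleles.

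Errfi1 was lower in replicate 1 by more than Tsc22d3 or Sgk1. Errfi1 (ENSMUSG00000028967.10, chr4:150853919-150868892, plus strand) encodes MIG6, a feedback inhibitor of the EGF receptor family. It had 5.23 TPM from 453 expected counts in replicate 1 and 8.47 TPM from 851 in replicate 2, a log2 ratio of -0.68 with an interval of -0.84 to -0.51, or 1.60-fold lower in replicate 1. A larger ratio was seen in 1.40% of genes compared. In the list of ErbB receptors and feedback inhibitors, 11 of 12 genes reached 1 TPM in both mice. Of the 12 compared, 1 passed the threshold higher in replicate 1 and 2 lower there, against 4.68% and 3.12% of all genes compared. The receptor Egfr was the first, with 2.62 TPM in replicate 1 and 1.88 TPM in replicate 2 (1.27-fold). The other, beside Errfi1, was Lrig3, a regulator below 1 TPM with an interval of -0.85 to 0.08. In the second table neither Egfr, at 0.24, nor Lrig3, at -0.26, passed the threshold, and Egfr was at 0.18 under spike-in scaling. Erbb2, Erbb3 and Erbb4 stood at 2.68, 3.13 and 5.005 TPM with log2 ratios of 0.09, 0.02 and -0.08. Lrig1 (12.6 TPM), Spry1 (7.27 TPM), Spry2 (10.04 TPM), Spry4 (2.41 TPM), Socs4 (5.23 TPM) and Socs5 (13.7 TPM), which restrain receptor signalling, were under the threshold with TMM. Spry4 passed it, lower in replicate 1, in the second table (-0.33) and under total count and spike-in scaling. Spry1 passed it, also lower there, under spike-in scaling. Errfi1-201 led in both transcript tables, with 94.1% of TPM in replicate 1 and 96.6% in replicate 2 in the first and 70.5% and 70.6% in the second. Errfi1-202, with the same coding sequence of 1386 bases, was at 0% in the first and at 22.0% and 19.2% in the second. The short processed transcript Errfi1-203 held 5.93% and 3.43% in the first table and 7.49% and 10.2% in the second.

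Of the 10 genes, Zbtb16 was the highest that encodes a transcription factor and was close between the hearts. Zbtb16 (ENSMUSG00000066687.5, chr9:48654297-48836222, minus strand) encodes PLZF, a BTB zinc finger repressor that glucocorticoids induce in many tissues. It had 59.6 TPM from 7685 expected counts in replicate 1, the most counts of the 10 genes, and 57.2 TPM from 8237 in replicate 2. The log2 ratio was 0.13 with an interval of 0.09 to 0.18. The interval did not include 0, but at 1.10-fold the difference was small, and 3736 of the 12454 genes compared had a larger one. Among 9 BTB zinc finger genes listed, Zbtb16 included, 7 reached 1 TPM in both mice. Zbtb20 was higher than Zbtb16, at 76.0 TPM, and Zbtb7a (16.5 TPM), Zbtb17 (9.88 TPM), Zbtb7b (9.01 TPM), Bcl6 (6.59 TPM) and Bcl6b (4.88 TPM) were lower. Bcl6 alone of the 8 compared passed the threshold, 1.27-fold higher in replicate 1, but not in the second table (0.31) or under spike-in scaling (0.18). Among all genes compared, 4.68% passed it higher and 3.12% lower in replicate 1. Zbtb16-201 held 67.3% of TPM in replicate 1 and 64.7% in replicate 2 in the first table and 81.1% and 76.1% in the second. Zbtb16-202 held the rest, and the 2 transcripts share their whole coding sequence of 2022 bases, so both quantifications gave the same protein.

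The C/EBP factors differed from each other. Cebpb (ENSMUSG00000056501.3, chr2:167688915-167690418, plus strand), which links hormone and stress signals to metabolic and inflammatory genes, had 29.7 TPM from 1293 expected counts in replicate 1 and 33.8 TPM from 1669 in replicate 2. Its log2 ratio was -0.14 with an interval of -0.24 to -0.03, under the threshold. Cebpd (ENSMUSG00000071637.5, chr16:15887286-15891031, plus strand), an early-response factor of the same family, had 2.09 TPM from 236 counts in replicate 1 and 4.13 TPM from 530 in replicate 2. This was the largest difference between the hearts among the 10 genes, with a log2 ratio of -0.93, an interval of -1.16 to -0.71 and 1.91-fold lower values in replicate 1. Only 0.658% of genes compared had a larger ratio. Cebpb exceeded Cebpd by 14.2-fold in replicate 1 and by 8.18-fold in replicate 2. Of 7 genes of the family and its partners, 6 reached 1 TPM in both mice. Cebpa, which is known from liver and fat, was the other one past the threshold, with 1.96 TPM in replicate 1 and 2.81 TPM in replicate 2. Thus 2 of the 6 compared passed it lower in replicate 1 and 0 higher, against 3.12% and 4.68% of all genes compared. Cebpg (7.94 TPM), Cebpz (7.70 TPM) and the stress partner Ddit3 (8.30 TPM) had log2 ratios between -0.06 and 0.06. Single transcripts held all of the TPM of Cebpb and of Cebpd in both tables. Both genes overlap a gene on the opposite strand, Tmem189 for Cebpb (9.67 TPM in replicate 1 and 10.1 TPM in replicate 2) and Spidr for Cebpd (0.92 and 0.65 TPM). Hsd11b1 likewise overlaps Lamb3 on the opposite strand, at 3.84 TPM in replicate 1 and 4.37 TPM in replicate 2. Whether counting used strand is not given in the sources used here, and whether reads of such pairs were told apart was not tested. Expected counts were whole numbers for Cebpb, Cebpd and Hsd11b1, for Spidr (92 in replicate 1 and 74 in replicate 2) and for Lamb3 (375 and 469). Those of Tmem189 were not, at 652.97 and 777.22.

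Mt1 was the highest of the 10 genes and Mt2 the only gene past the threshold and higher in replicate 1. Mt1 (ENSMUSG00000031765.8, chr8:94179082-94180327, plus strand) and Mt2 (ENSMUSG00000031762.7, chr8:94172664-94173568, plus strand) are neighbours that encode the 2 widely expressed metallothioneins. Their coding sequences, 186 bases each from start to stop codon in Mt1-201 and Mt2-201 (GENCODE M21, GRCm38), are shown because reads can be assigned to either gene only where they differ, with capitals at the 38 differing positions.
Mt1-201: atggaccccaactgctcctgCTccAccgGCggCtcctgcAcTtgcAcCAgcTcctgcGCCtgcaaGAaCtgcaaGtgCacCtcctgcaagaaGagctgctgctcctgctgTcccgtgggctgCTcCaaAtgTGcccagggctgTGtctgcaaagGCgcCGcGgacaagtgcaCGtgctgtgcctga
Mt2-201: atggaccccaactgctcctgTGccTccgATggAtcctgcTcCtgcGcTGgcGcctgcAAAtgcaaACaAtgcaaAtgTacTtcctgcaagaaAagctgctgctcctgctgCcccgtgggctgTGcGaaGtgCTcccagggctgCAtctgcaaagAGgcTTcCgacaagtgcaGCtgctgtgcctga
The sequences were identical at 79.6% of positions, and each held 20 cysteine codons among 61. The longest run of identical bases was 20, and 0 of 481 words of 31 bases in Mt2-201 occurred in Mt1-201.

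Mt1 had 172 TPM from 2412 expected counts in replicate 1 and 168 TPM from 2685 in replicate 2, with a log2 ratio of 0.08 and an interval of -0.00 to 0.16. Mt2 had 44.0 TPM from 470 counts in replicate 1 and 28.5 TPM from 342 in replicate 2, with a log2 ratio of 0.69, an interval of 0.49 to 0.90 and 1.61-fold higher values in replicate 1. A larger ratio was seen in 1.31% of genes compared. The neighbours thus differed in how far the hearts stood apart, and Mt1 exceeded Mt2 by 3.91-fold in replicate 1 and by 5.89-fold in replicate 2. Of the family's other genes, Mt3, known from brain, had 1.03 TPM in replicate 1 and 1.11 TPM in replicate 2, and Mt4, known from stratified epithelia, was at 0 in both. Mt1-201 held 99.3% of Mt1 TPM in replicate 1 and 99.2% in replicate 2 in the first table and 99.6% and 99.5% in the second. Mt2 was split in the first table between Mt2-201, with 45.1% and 42.3%, and the shorter Mt2-202, with 54.9% and 57.7%. In the second table Mt2-201 held 100% in both mice. Of the 31-base words of Mt2-202, 74.3% also occur in Mt2-201. Mt2 overlaps the antisense gene Gm45774, which was at 0.06 TPM in replicate 1 and 0.02 TPM in replicate 2.

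**Figure D3:**
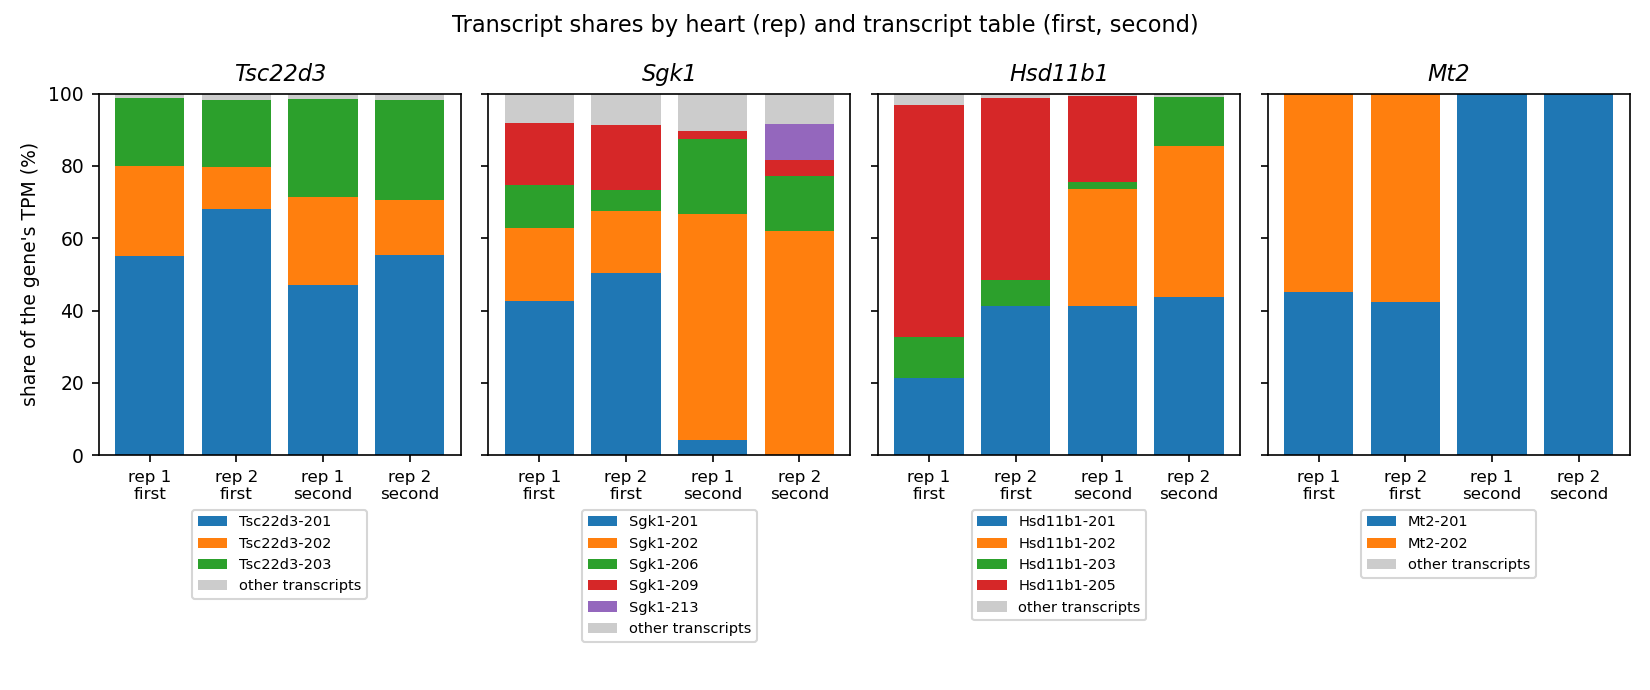
Share of each gene's TPM (%) held by its transcripts in Tsc22d3, Sgk1, Hsd11b1 and Mt2, with bars for replicates 1 and 2 in the first and then the second transcript table and transcripts under 5% in grey. The bars of Tsc22d3 keep Tsc22d3-201 as the leading form in all 4, whereas Sgk1-201 gives way to Sgk1-202 and Mt2-202 to Mt2-201 between tables.

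Metal response elements stood near both RefSeq starts. The RefSeq windows (GRCm38, plus strand, chr8:94178839-94179118 for Mt1 and chr8:94172368-94172647 for Mt2, 250 bases before the start to 30 after) are shown because both genes are known targets of MTF1, with the elements in capitals.
Mt1: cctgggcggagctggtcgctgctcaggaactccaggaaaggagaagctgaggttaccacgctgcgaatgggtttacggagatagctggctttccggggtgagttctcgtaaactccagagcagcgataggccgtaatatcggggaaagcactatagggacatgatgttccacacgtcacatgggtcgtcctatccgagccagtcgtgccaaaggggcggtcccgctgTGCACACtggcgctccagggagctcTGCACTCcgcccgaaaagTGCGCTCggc
Mt2: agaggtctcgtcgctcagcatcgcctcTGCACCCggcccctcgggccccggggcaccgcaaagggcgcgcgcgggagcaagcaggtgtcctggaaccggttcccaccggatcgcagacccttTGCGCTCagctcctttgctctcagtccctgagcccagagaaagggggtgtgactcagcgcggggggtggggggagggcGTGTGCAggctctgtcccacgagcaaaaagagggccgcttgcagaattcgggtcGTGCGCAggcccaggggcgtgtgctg
The element was searched as TGCACNC or TGCGCNC on both strands. In Mt1 it occurred 3 times, from 23 bases before the start to 26 after it, and in Mt2 4 times, from 223 bases before to 10 after. These distances are from the RefSeq starts. For Mt2 that start, at 94172618, lies upstream of the start of Mt2-201, at 94172664, which is beyond the stretch shown. Among all 32851 windows 25.7% held at least 1, 1.97% held 3 or more and 0.517% held 4 or more. The glucocorticoid hexamer was in neither window, nor was TATAAA, which 13.6% of all windows held. Bases beyond the windows were not searched. The annotated starts of Mt1-203 and Mt1-202, at 94179211 and 94179241, lie past the end of the Mt1 window, at 94179138. MTF1's own gene, Mtf1, named after its value was seen, stood at 5.54 TPM.

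Genes of zinc and copper handling were mostly expressed. Of 25 listed, 21 reached 1 TPM in both mice, and 0 of the 21 compared passed the threshold in either direction, where 4.68% of all genes compared passed it higher and 3.12% lower in replicate 1. Under spike-in scaling 4 of the 21 were lower in replicate 1 past the threshold, as were 11.8% of all genes compared. The highest were the copper-zinc enzyme Sod1 at 209 ± 14.6 TPM, Slc30a9 at 66.7 ± 1.92 TPM, the copper chaperone Atox1 at 40.7 ± 3.13 TPM and the zinc importer Slc39a14 at 36.1 ± 4.70 TPM (SD, n = 2). The lowest, Slc30a10 and the copper pump Atp7b, were at 0.01 and 0.04 TPM. The zinc exporter Slc30a1, itself induced by MTF1 and also named after its value was seen, had 7.40 TPM in replicate 1 and 7.13 TPM in replicate 2, with a log2 ratio of 0.10.

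Other genes that glucocorticoids are known to induce included 6 that were lower in replicate 1 under every scaling run and in both tables. Of 30 listed, 29 reached 1 TPM in both mice. The highest were Ptgds at 299 ± 3.58 TPM, Glul, glutamine synthetase, at 252 ± 12.3 TPM, Pdk4, the kinase that restrains glucose oxidation, at 111 ± 12.6 TPM and Txnip at 106 ± 0.686 TPM (SD, n = 2). The lowest were the liver enzyme Tat, at 0.34 TPM, and the phagocytic receptor Mertk, at 1.73 TPM. Of the 29 compared, 4 passed the threshold higher in replicate 1 and 6 passed it lower there, against 4.68% and 3.12% of all genes compared, and their median log2 ratio was 0.05. Under spike-in scaling 0 of the 29 were past it higher in replicate 1 and 7 lower, against 1.97% and 11.8% of all genes compared. The counts of the second quantification gave 3 higher and 6 lower. The genes in the next sentences were named after their values were seen. Cdkn1a (1.34-fold), Mertk (1.29-fold), Bcl6 (1.27-fold) and the thiamine transporter Slc19a2 (1.26-fold) were higher in replicate 1. All 4 were under the threshold with spike-in scaling, between 0.16 and 0.25, and Bcl6 and Slc19a2 also in the second table. The gluconeogenic enzyme Pck1 had 1.96 TPM in replicate 1 and 6.88 TPM in replicate 2 (3.63-fold). The clock gene Per1 had 16.2 TPM in replicate 1 and 30.6 TPM in replicate 2 (1.81-fold). The mTOR inhibitor Ddit4 had 16.0 and 27.1 TPM in the same order (1.63-fold), and Irs2 (1.53-fold), Nfkbia (1.44-fold) and Ctgf (1.36-fold) were also lower in replicate 1. Targets as well known as Klf9, Klf15, Dusp1 and Foxo3 had log2 ratios of -0.03, -0.13, 0.14 and 0.08.

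**Figure D4:**
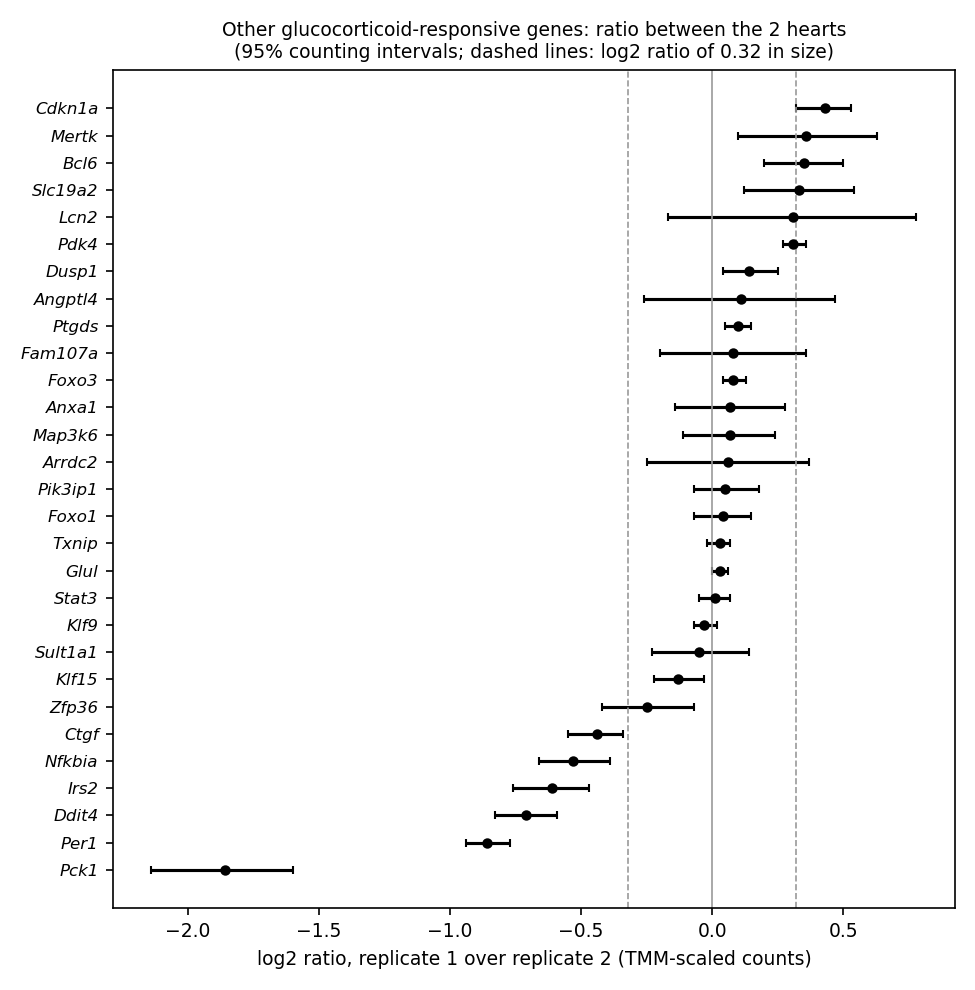
Log2 ratio of replicate 1 over replicate 2 for the 29 other glucocorticoid-responsive genes compared, with exact 95% counting intervals as bars and dashed lines at 0.32 in either direction. Pck1, Per1, Ddit4, Irs2, Nfkbia and Ctgf lie left of the left-hand line, and 4 genes lie right of the right-hand line.

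Other differences between the libraries went along with these. Over all 12454 genes compared, 4.68% passed the threshold higher in replicate 1 and 3.12% lower there. Under spike-in scaling these shares were 1.97% and 11.8%. Markers of adipocytes summed to 11.7 TPM in replicate 1 and 23.9 TPM in replicate 2, with all 5 of the 7 that could be compared lower in replicate 1 past the threshold and 0 of 7 at 0 in both. Red cell markers summed to 20348 TPM in replicate 1 and 6413 TPM in replicate 2, with all 6 compared of the 7 found higher in replicate 1 and none at 0. Of 12 immediate early genes, 10 were compared, 2 passed the threshold higher in replicate 1 (0 under spike-in scaling) and 4 lower (6 under spike-in scaling), among them Nr4a1 with 7.70 TPM in replicate 1 and 17.4 TPM in replicate 2, and their sums were 54.5 and 69.8 TPM. Sums for heart muscle cells were 26042 TPM in replicate 1 and 28536 TPM in replicate 2, for fibroblasts 216 and 234 TPM, for endothelium 213 and 210 TPM, and for macrophages 57.1 and 62.4 TPM, with 0 of 6 genes past the threshold in each of the 4 lists. Under spike-in scaling 3 of the 6 macrophage genes passed it, lower in replicate 1. The part of these differences in the ratios of Mt2, Tsc22d3, Sgk1, Errfi1 and Cebpd was not tested.

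The level of Mt1 depended on the quantification more than that of any other of the 10 genes. Summed over transcripts, the second table gave Mt1 301 TPM in replicate 1 and 287 TPM in replicate 2, 1.73 times the gene table. Mt1 alone of the 10 genes was more than 1.5-fold apart between them, as were 15.8% of all detected genes, with Mt2 at 1.48 and Hsd11b1 at 1.42. For the other 7 genes the second table gave between 0.91 and 1.18 times the gene table's level, and the median over all detected genes was 1.14. Estimated counts of Mt1 were no higher in the second table, at 2195 in replicate 1 and 2382 in replicate 2, or 0.91 and 0.89 of the gene table's. The effective length by which counts are divided did differ, because the gene table takes 99 bases off each transcript and the second table a median of 326. For Mt1-201, of 549 bases, this left 450 bases in one and 224 in the other (replicate 1). With 99 bases taken off in both, Mt1 came to 1.18 and Mt2 to 0.93 times the gene table. Every other gene of the 10 rose and lay farther from 1 than before. Zbtb16 went from 1.03 to 1.32, Tsc22d3 from 1.13 to 1.33, Errfi1 from 1.12 to 1.34 and Fkbp5 from 1.18 to 1.37. Of the 10 genes, equal lengths thus brought the tables closer for Mt1 and Mt2 only. TPM was rescaled over the whole second table for this, and the median over all detected genes was not computed again. Among all protein-coding genes at 1 TPM, the 231 with an effective length under 500 bases had a median of 1.31, and the 6429 over 2000 bases a median of 1.12. Between the hearts the second table's counts gave log2 ratios of 0.10 for Mt1 and 0.68 for Mt2, close to those of the gene table.

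Leading transcripts were the same in the 2 tables for 6 of the 9 genes with several transcripts and differed for Sgk1, Hsd11b1 and Mt2. By counts in place of TPM, Mt2-201 led the first table too, with 253 against 217 in replicate 1 and 175 against 167 in replicate 2, and Mt2 no longer differed. Over all detected genes with several transcripts, 24.2% had different leading transcripts. The 10 genes have 54 annotated transcripts in all. At the level of whole genes, expected counts were whole numbers in both mice for all 10, as for 81.3% of detected genes.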

How the data were processed

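For each heart the authors deposited a gene table (expected counts, 2 estimates of TPM, the second a posterior mean, and FPKM), a first transcript table with the same columns, and a second transcript table with estimated counts and TPM, per the file headers. Build (mm10) and annotation (GENCODE M21) are as deposited with the files; the second transcript table was made from reads and an index, per the deposited file descriptions, but the programs and the use of strand were not given in the sources used here. Estimated or expected counts were rounded, and TMM factors and the common dispersion came from edgeR 4.0.16 under R 4.3.3. With 1 group of 2 mice no test between conditions and no p-value was possible. Ratios used a prior count of 0.5, with exact Clopper-Pearson intervals at 95%, which cover counting error only, and were tested on simulated counts. Gene totals left out the spike-ins. The members and lists were chosen with earlier results of these data known. All 10 members were named, with transcripts at 5% or more of TPM in either table. Cell type markers were given as sums, and of the immediate early genes only Nr4a1 was named, with its value known. In the other gene lists every member at 1 TPM was named where a list had at most 14 genes, and otherwise the 4 highest and 2 lowest. A gene that this rule would name is not reported here. Starts within 100 bases counted as 1. Lists covered receptors and steroid handling, chaperones and coregulators, other glucocorticoid-responsive genes, metallothioneins, zinc and copper handling, the C/EBP, FKBP, SGK and AKT, TSC22, ErbB and BTB families, immediate early genes and markers of 6 cell types. Promoter windows came from RefSeq (GRCm38) and coding sequences from GENCODE M21. These are reference sequences, and the CAST alleles of these mice were not examined. Alternatives included DESeq2 1.42.0 size factors, total, upper-quartile and spike-in scaling, other priors, filters and thresholds, the second transcript table, and leaving out each mouse.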

Additional observations from a re-analysis of the deposited data

How the results depend on the processing

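The count of genes past the threshold between mice stayed at 5 under DESeq2, total count, upper-quartile and spike-in scaling, prior counts of 0.1 and 5, no count filter or a mean count of 10, the second table's counts and the TPM ratio. All 80 values of single genes under the scalings, priors and tables kept their direction where past the threshold, and their side of it. The count was 3 with a mean count of 500, which leaves out Mt2 and Cebpd, 3 at 1.5-fold and 0 at 2-fold. The median level of the 10 genes, 27.4 TPM, was 32.1 TPM in the second table, 70.2 TPM when rescaled to nuclear protein-coding genes and 21.7 as FPKM, and 27.1 to 27.7 TPM when each mouse was left out. Counts at 1 TPM, between tables and of leading transcripts stayed within 1.5 times the reported count in every alternative run. The level of single genes moved by more than the SD between mice in 17 of 30 values and the leading transcript's share in 14 of 20. The other scalings and the second table were applied to the gene lists after the data had been seen. Using the gene table's effective lengths for the second table was chosen after seeing the data and left 9 genes within 1.5-fold, with Hsd11b1 in place of Mt1 outside, at 1.52. No paired analysis was possible because there was only 1 group. A ratio between mice cannot be formed with either mouse left out. Depth limits Hsd11b1 and Cebpd most, with fewer than 300 counts in replicate 1.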
